A study of Mus musculus with 5 samples.

Results

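The FGF genes followed here were 10 members chosen by symbol: the secreted ligands Fgf1, Fgf2, Fgf7, Fgf10 and Fgf21, the intracellular factor Fgf14, the receptors Fgfr1, Fgfr2 and Fgfr3, and the co-receptor Klb. All 10 were found among the 32285 genes of both count matrices. The values are unique molecular identifier counts (UMIs, 1 per captured RNA molecule) from single-nucleus RNA sequencing (snRNAseq) of sorted nuclei of mouse interscapular brown adipose tissue (iBAT), the heat-producing fat between the shoulder blades.

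Fibroblast growth factors (FGFs) are signaling proteins that one cell releases and another reads. Paracrine FGFs stay near their source and bind tyrosine kinase receptors (Fgfr1 to Fgfr3 among them) together with heparan sulfate chains on the cell surface, whereas endocrine FGF21 travels in the blood and needs the membrane protein beta-Klotho (Klb) beside FGFR1. The receptors pass the signal through adaptor proteins to the MAP kinase cascade, which turns on ETS transcription factors and feedback inhibitors such as the Sprouty proteins. In adipose tissue FGF10 is known for its part in the formation of adipocytes and FGF21 for its action on adipocytes and for being made by brown fat under cold. FGF14 belongs to a separate branch, the FGF homologous factors, which stay inside the cell and bind voltage-gated sodium channels.

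The series holds 5 libraries. A 3-month matrix joins 1 library of littermate control mice (labelled WT; Ucp1-Cre+/- or STX4 fl/fl) and 1 of Ucp1-STX4KO mice (Ucp1-Cre+/- with STX4 fl/fl), in which Cre is driven by the promoter of Ucp1, the uncoupling protein of brown adipocytes, so that deletion of the syntaxin 4 gene is directed to those cells. Both came from male mice of 3 months. An aging matrix joins 3 libraries of male C57BL/6J mice of 2, 12 and 24 months, 1 library per age. The tissue came from several mice, and how many entered each library is not stated in the labels.

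The libraries of a matrix were told apart by the number that ends each barcode. No label ties that number to a genotype or an age, so the libraries are named here only by number (library 1 and 2 of the 3-month matrix, libraries 1 to 3 of the aging matrix). Differences between them are given as a spread between libraries and cannot be assigned to genotype or age, and no test was possible. All intervals are 95% intervals that cover counting error alone. A level is given as counts per 1000000 UMIs (CPM) summed over the nuclei of a type, and because a nuclear 3' count depends on the gene, levels are compared between cell types for 1 gene and never between genes. Fewer nuclei that use a gene and less RNA per nucleus cannot be told apart in such a sum.

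The 3-month matrix held 20307 nuclei, 11201 in library 1 with a median of 5998 UMIs and 9106 in library 2 with a median of 3284.5 UMIs. The aging matrix held 10000 barcodes per library, 30000 in all, of which 27842 had at least 200 UMIs and 100 genes, and the 2158 below those limits were all in library 1. Libraries shared 23 barcodes in the 3-month matrix, and 28, 45 and 28 in the pairs of the aging matrix.

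Nuclei were sorted into types by 11 fixed marker lists that hold no FGF gene, and are called "like" a cell type for that reason. Of the 3-month nuclei 18352 were placed: 15126 adipocyte-like, 1076 stromal-like (fibroblasts or progenitors), 840 macrophage-like, 420 mural-like (pericytes or smooth muscle cells of vessel walls), 339 endothelial-like, 324 skeletal muscle-like and 139 T or NK cell-like, the rest in types of 30 nuclei or fewer. Of the aging nuclei 23709 were placed, and 17076 were endothelial-like, 3430 mural-like, 1720 adipocyte-like, 922 stromal-like and 391 Schwann-like (the glia of nerves), so adipocyte-like nuclei, the labelled cell type, were the minority of the nuclei placed.

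The same markers that placed the nuclei describe them and do not test the types. In the 3-month matrix 7 of 10 adipocyte markers and every endothelial, mural and stromal marker (10, 9 and 10) were at least 4-fold higher in the nuclei of their list than in the others. For the aging matrix 8 of 10 adipocyte markers and again all endothelial, mural and stromal markers were. The edge of a type is a range: in the 3-month matrix 892 nuclei lay within 20% below the adipocyte limit and 1207 within 20% above it, and for the stromal limit the numbers were 263 and 89. The aging matrix had 1152 nuclei below and 205 above the adipocyte limit, and 478 and 45 around the stromal limit.

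Free RNA can give a nucleus UMIs of genes it does not use. The thermogenic gene Ucp1, which only brown and beige adipocytes are known to use, gave UMIs in stromal-, endothelial- and macrophage-like nuclei too. The UMIs of a gene per UMI of Ucp1 are therefore given beside levels, since within a library 1 source of stray RNA keeps its genes at a fixed ratio.

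A gene was called raised in a type where its level was at least 4-fold that of all other placed nuclei of the matrix and at least 2-fold in every library with 50 or more nuclei of that type, among genes with 50 or more UMIs. In the 3-month matrix 8 of the 10 members had enough UMIs and 6 were raised in at least 1 of 7 types, beside 32% of 16127 genes. With the study's full range of UMIs and genes, which leaves 2763 nuclei, 2 members were raised in that matrix: Fgf10 kept its call, Fgfr1 gained one, and those of Fgf1, Fgf2, Fgf7, Fgf14 and Klb were lost. In the aging matrix 9 had enough UMIs and 8 were raised in at least 1 of 5 types, beside 24.2% of 15131 genes. The highest ratio of a member over any type had a median of 8.44 in the 3-month matrix, against 2.59 for all genes tested, and of 11.5 in the aging matrix, against 2.145. The members were chosen with earlier results of these data known, so these counts and medians describe the list and do not test it.

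Fgf10 was a stromal ligand in both matrices. Over the 3-month matrix the stromal-like nuclei held 658.4 CPM in library 1 (864 UMIs) and 2891 CPM in library 2 (6869 UMIs), 35.2 times the level of the other nuclei with libraries pooled (34.0 to 36.4). Within a library the ratio was 114.2 in library 1 and 16.3 in library 2, so the pooled value depends on both. Its aging stromal level was 653.7 CPM in library 1, 161.7 in library 2 and 166.3 in library 3, and the ratio to the other nuclei was 77.5 (66.2 to 91.1). The stromal level was above every other type with at least 50 nuclei in every library.

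The stromal level itself moved between libraries. In the 3-month matrix library 2 stood 4.39-fold above library 1 (4.09 to 4.72), and in the aging matrix libraries 2 and 3 stood at 0.247 (0.195 to 0.310) and 0.254 (0.211 to 0.306) of library 1 and did not differ from each other beyond counting error (1.03, 0.785 to 1.35). In the 3-month stromal-like nuclei 2.59% of all genes were at least 3-fold higher in library 2. Marker sums of these nuclei differed too: the stromal list stood at 6372 CPM in library 1 and 3619 CPM in library 2. The skeletal muscle list stood at 11.4 and 190.7 CPM. Among the aging stromal-like nuclei 2.05% of genes were at least 3-fold lower in library 2 than in library 1, and 2.29% in library 3. Fgf10 was thus among a small share of genes in each of these steps. Which genotype or age each library holds is not known here.

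The share of nuclei that held an Fgf10 UMI followed the level. It was 62.4% of the stromal-like nuclei of library 1 and 80.2% of those of library 2, and 36.7% and 66.7% in nuclei thinned to 1000 UMIs. Shallower nuclei were left out of all thinned shares, here 17 in library 2. In T or NK cell-like nuclei, lymphocytes that serve as a background type for a mesenchymal ligand, 26.0% of the nuclei of library 2 held a UMI and 17.2% after thinning. The median depth over both libraries was 3128 UMIs in stromal-like and 1652 in T or NK cell-like nuclei. Single stromal-like nuclei of library 2 held up to 144 Fgf10 UMIs.

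Outside the stroma, the Fgf10 level was higher in library 2 than in library 1 of the 3-month matrix in each of the 4 types with at least 50 nuclei in both. Adipocyte-like nuclei held 5.82 CPM in library 1 (417 UMIs) and 191.7 CPM in library 2 (5373 UMIs), a ratio of 33.0 (29.8 to 36.5), where 8.21% of genes were at least 3-fold higher in library 2. Endothelial-like nuclei held 5.50 CPM (1 UMI) and 183.3 CPM (82 UMIs), and macrophage-like nuclei 8.34 and 103.4 CPM. In mural-like nuclei library 1 had 0 UMIs, where 3 UMIs would be 5.01 CPM, and library 2 had 139.1 CPM. T or NK cell-like nuclei of library 2 held 176.8 CPM and skeletal muscle-like nuclei 51.9 CPM.

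The share of nuclei with an Fgf10 UMI in library 2 was 36.8% in adipocyte-like and 26.0% in T or NK cell-like nuclei, and 13.4% and 17.2% after thinning, which left 4368 and 109 nuclei. Single adipocyte-like nuclei held up to 90 Fgf10 UMIs, and no T or NK cell-like nucleus more than 3. Per UMI of Ucp1, Fgf10 stood in library 2 at 0.227 in adipocyte-like, 0.352 in skeletal muscle-like (0.270 to 0.457) and 0.427 in endothelial-like nuclei. It stood at 0.424 in T or NK cell-like, 0.463 in mural-like, 0.476 in macrophage-like and 13.4 in stromal-like nuclei. Marker lists of other types moved with it in the adipocyte-like nuclei of libraries 1 and 2, except the dendritic cell list (43.1 and 29.0 CPM). The 10 stromal markers summed to 29.1 and 85.2 CPM, with all 10 detected in both and Col3a1 the most abundant (7.06 and 22.4 CPM). The 9 mural markers summed to 29.03 and 103.5 CPM and the 8 skeletal muscle markers, with Ttn the most abundant, to 7.38 and 206.8 CPM, again with all markers detected in both. Most of the mural sum of library 2 was Steap4 (76.7 CPM), while in library 1 the most abundant mural marker was Notch3 (8.29 CPM). The part of RNA of these types or of stray RNA in the Fgf10 level of adipocyte-like nuclei was not tested.

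The aging adipocyte-like nuclei held 30.6, 7.64 and 3.96 CPM of Fgf10 in libraries 1 to 3, from 63, 13 and 3 UMIs. Endothelial-like nuclei held 11.6, 2.21 and 2.40 CPM. Library 1 was highest in both types, but 1 nucleus held 23 of its 63 adipocyte UMIs (36.5%). Mural-like nuclei held 2.24, 2.62 and 1.95 CPM, which did not differ beyond counting error.

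Fgf10 lies at chr13:118669791-118792115 (build GRCm38, plus strand, GENCODE M21 annotation). A noncoding gene on the opposite strand, Gm16263, overlaps it, and its profile over types and libraries followed that of Fgf10 (Pearson r of log2 CPM 0.93 over 12 points of the 3-month matrix and 0.97 over 14 points of the aging matrix). How strand was used in the counting is not stated in the sources used here, so reads of the pair cannot be told apart.

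**Figure D1:**
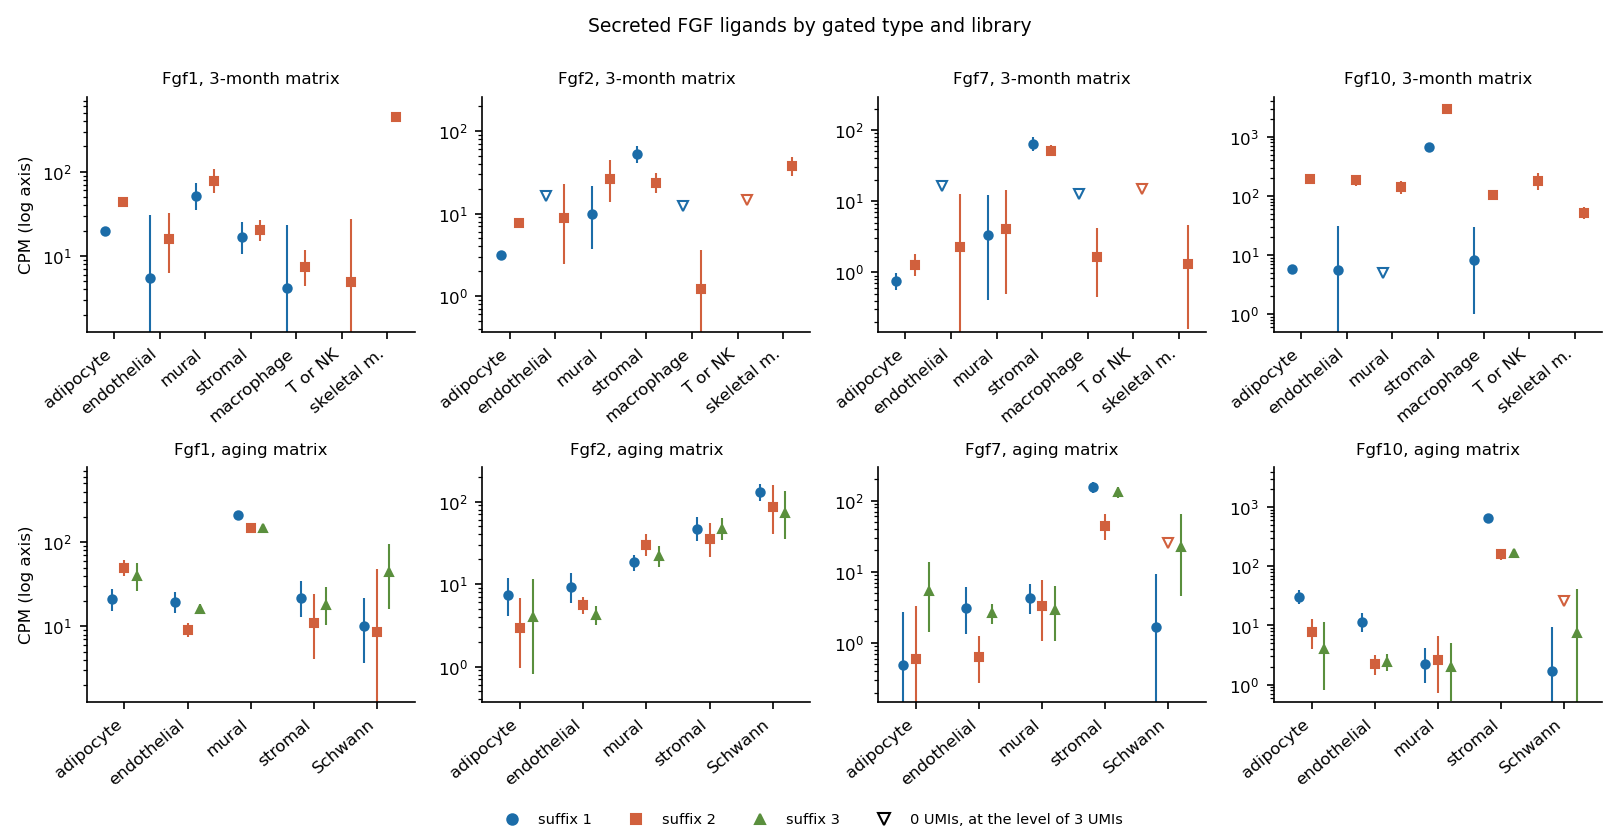
CPM of 4 FGF ligands in the 7 types compared in the 3-month and the 5 compared in the aging matrix, in libraries with at least 20 nuclei of the type, on a log axis; each point is 1 library of a matrix, told apart by marker and colour, with its exact Poisson 95% interval, and open triangles mark 0 UMIs at the level that 3 UMIs would give. Lower bars that reach the axis are clipped. Fgf10 and Fgf7 have their highest measured level in stromal-like nuclei in every library, and the Fgf10 points of 3-month library 2 lie above those of library 1 in each type drawn for both.

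Fgf7, a ligand that mesenchymal cells make and epithelial cells read, had its highest level in the stroma. The 3-month stromal-like nuclei held 64.0 CPM in library 1 (84 UMIs) and 51.4 CPM in library 2 (122 UMIs), while adipocyte-like nuclei held 0.753 and 1.28 CPM. The ratio to all other nuclei was 58.1 (45.6 to 74.4), and 83.3 and 37.2 within libraries 1 and 2. Adipocyte-like nuclei, which are far more numerous, held 90 UMIs in all, against 206 in stromal-like nuclei. In T or NK cell-like nuclei it had 0 UMIs, where 3 UMIs would be 12.0 CPM over both libraries.

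Unlike Fgf10, Fgf7 did not stand higher in the stroma of library 2. A single nucleus held 28 of the 122 UMIs there, 23.0% of the sum. The aging stromal level was 154.4, 44.1 and 130.3 CPM, with 128, 24 and 116 UMIs, so library 2 was lowest (0.286 of library 1, 0.177 to 0.444) and library 3 was within counting error of library 1 (0.844, 0.651 to 1.09). The ratio to the other nuclei was 54.2 (42.8 to 69.2). Of the stromal-like nuclei 10.5% held an Fgf7 UMI in the 3-month matrix and 15.9% in the aging matrix. The gene lies at chr2:126034658-126091185.

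Fgf2, a ligand without a classical secretion signal that acts on many mesenchymal and endothelial cells, was raised in stromal-, skeletal muscle- and Schwann-like nuclei. Within the 3-month matrix it was raised in stromal-like nuclei (52.6 CPM in library 1 and 23.6 in library 2; ratio 6.80, 5.55 to 8.28, with 16.4 and 2.65 within libraries 1 and 2, the latter under 4-fold) and in skeletal muscle-like nuclei (37.7 CPM in library 2; ratio 7.05, 5.33 to 9.19, with 4.37 within library 2). With libraries pooled, muscle and stroma did not differ beyond counting error (1.14, 0.825 to 1.56). However, 316 of the 324 muscle-like nuclei were in library 2, and the stromal level differed between libraries. Within library 2 muscle held 37.7 CPM (58 UMIs) and stroma 23.6 CPM (56 UMIs), so the muscle level was higher there. Mural-like nuclei held 10.0 and 26.2 CPM, in library 2 close to the stromal level, and adipocyte-like nuclei 3.13 and 7.60 CPM. The 3-month calls of Fgf2 were lost with equal weight to each other type, a setting chosen after seeing the data. They were also lost with the study's full range of UMIs and genes.

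Schwann-like nuclei led for Fgf2 in the aging matrix. They held 130.3, 85.4 and 73.6 CPM from 78, 10 and 10 UMIs, 11.5 times the level of the other nuclei (9.15 to 14.3), and 18.9% of them had a UMI. Stromal-like nuclei followed with 47.0, 34.9 and 47.2 CPM (ratio 4.30, 3.43 to 5.35, with 2.31, 4.28 and 7.02 within libraries 1 to 3), and the Schwann level was 2.604 times theirs (1.95 to 3.48). Mural-like nuclei held 18.4, 30.2 and 21.9 CPM and endothelial-like nuclei 9.25, 5.61 and 4.20 CPM. Only 30 nuclei of the 3-month matrix were Schwann-like, too few for a call, and they held 5 Fgf2 UMIs among 70334 UMIs of all genes. As a level this was above the pooled 3-month muscle and stromal levels (38.6 and 33.9 CPM), but it rested on those 5 UMIs. Fgf2 lies at chr3:37348346-37410108, where 1 other gene overlaps it on the same strand.

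Fgf1, a ligand able to bind all FGF receptors, was highest in contractile cells. The 3-month skeletal muscle-like nuclei held 451.2 CPM in library 2 (695 UMIs), and 69.9% of them had a UMI. The ratio to all other nuclei was 17.3 over both libraries (15.9 to 18.8), but 11.65 within library 2. Library 1 had 8 such nuclei and 7 UMIs. Mural-like nuclei came next with 51.7 and 78.6 CPM, then adipocyte-like nuclei with 19.6 and 43.1 CPM and stromal-like nuclei with 16.8 and 20.2 CPM.

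Fgf1 in the aging matrix, where no type of skeletal muscle-like nuclei reached 50 nuclei, was raised in mural-like nuclei: 213.5 CPM in library 1, 146.8 in library 2 and 149.3 in library 3, a ratio of 11.3 to the others (10.3 to 12.5). Of the mural-like nuclei 25.1% had a UMI, against 2.16% of the endothelial-like ones. Adipocyte-like nuclei held 20.9, 49.4 and 39.6 CPM.

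Smooth muscle-like nuclei carried most of that level. Mural-like nuclei of the aging matrix were parted by 4 contractile markers (Myh11, Acta2, Tagln, Cnn1) and 5 pericyte markers (Rgs5, Abcc9, Kcnj8, Steap4, Higd1b). The 1057 smooth muscle-like nuclei held 510.6, 415.6 and 422 CPM of Fgf1 in libraries 1 to 3, and the 2103 pericyte-like nuclei 53.6, 47.2 and 56.9 CPM. The lowest smooth muscle value was above the highest pericyte value, and the pooled ratio was 8.93 (7.83 to 10.2).

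Fgfr1 shared that split, with 188.7, 139.4 and 162.3 CPM in smooth muscle-like and 31.1, 30.2 and 48.8 CPM in pericyte-like nuclei (ratio 4.86, 4.08 to 5.81). For Fgfr2 the ratio was 1.90 (1.72 to 2.11) and for Fgf2 1.43 (1.02 to 1.98). For Fgf14 the subsets did not differ beyond counting error in library 1 (42.0 and 46.2 CPM), and smooth muscle-like nuclei were higher in library 2 (117 and 48.2 CPM; ratio 2.43, 1.598 to 3.68) and library 3 (199.1 and 10.7 CPM; ratio 18.6, 10.9 to 33.9).

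**Figure D2:**
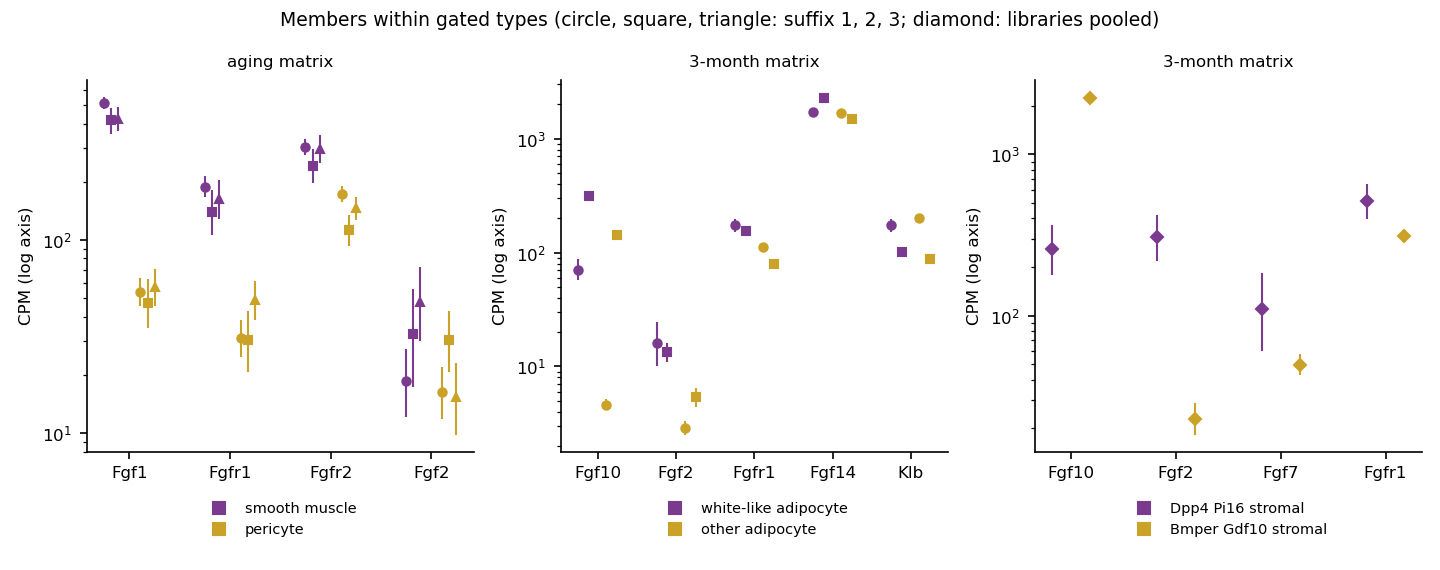
CPM of members in subsets of a type, on log axes, each point 1 library (circle, square and triangle for libraries 1, 2 and 3) or the pooled matrix (diamond) with its 95% counting interval; from the left, smooth muscle-like and pericyte-like nuclei of the aging matrix, and white-like and other adipocyte nuclei and the Dpp4 Pi16 and Bmper Gdf10 stromal nuclei of the 3-month matrix. Fgf1 and Fgfr1 are higher in smooth muscle-like nuclei in all 3 aging libraries, and Fgf10 and Fgf2 move in opposite directions between the stromal subsets.

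The stroma of adipose tissue holds Dpp4 and Pi16 positive progenitors, known from white fat as an early progenitor pool, and cells nearer to adipocytes. Stromal-like nuclei were parted by 5 markers of each. Pooled over libraries, 48 nuclei of the 3-month matrix had the Dpp4 and Pi16 pattern and 968 the Bmper and Gdf10 pattern. The former held 258.1 CPM of Fgf10 and the latter 2217 CPM, a ratio of 0.116 (0.0801 to 0.164). For Fgf2 the direction was the opposite, 305.1 against 23.0 CPM (ratio 13.3, 8.82 to 19.8).

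Library 2 alone, with 32 and 654 nuclei, gave 297.8 against 3075 CPM for Fgf10 (ratio 0.0969, 0.0607 to 0.147) and a ratio of 12.45 for Fgf2 (6.33 to 23.3). The aging matrix had the same directions from 22 and 778 nuclei. Fgf10 stood there at 68.2 against 384.1 CPM (ratio 0.178, 0.0483 to 0.457) and Fgf2 at 238.8 against 38.0 CPM (ratio 6.28, 3.28 to 11.2).

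For Fgf7 and Fgfr1 a difference beyond counting error was found in the pooled 3-month matrix and not in library 2 alone or in the aging matrix. The pooled 3-month ratio of Fgf7 was 2.21 (1.18 to 3.801), but 1.17 in library 2 alone (0.313 to 3.09) and 0.765 in the aging matrix (0.246 to 1.81, from 5 UMIs in the Dpp4 and Pi16 subset). Fgfr1 had a pooled 3-month ratio of 1.67 (1.28 to 2.14), 1.36 in library 2 alone (0.918 to 1.95) and 0.785 in the aging matrix (0.455 to 1.27). Fgf1 was higher in the Dpp4 and Pi16 subset both pooled over the 3-month matrix, at 70.4 against 15.7 CPM (ratio 4.49, 1.95 to 9.16, from 9 UMIs in the subset), and in library 2 alone (5.12, 1.76 to 12.3, from 6 UMIs), while the aging ratio of 3.30 rested on 3 UMIs (0.646 to 10.6). Fgfr2 was higher in the subset in the aging matrix (2.09, 1.10 to 3.65) and did not differ beyond counting error in the 3-month matrix (0.636, 0.337 to 1.097). Under 20 nuclei of the Dpp4 and Pi16 subset were left in every other library.

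Fgf21 was barely detected. It had 12 UMIs in the adipocyte-like nuclei of library 1 (0.167 CPM) and 9 in those of library 2 (0.321 CPM) of the 3-month matrix, in 21 of 15126 nuclei, and 0 in each other type with at least 50 nuclei. The limit set by 3 UMIs was 0.813 CPM for stromal-like and 12.0 CPM for T or NK cell-like nuclei, so the absence of UMIs there does not place it below the adipocyte level. The aging adipocyte-like nuclei had 0 UMIs, where 3 UMIs would be 0.664 CPM, and the 3 UMIs found were in endothelial-like nuclei. It lies at chr7:45613886-45615490, the shortest member with 1605 bases, and no other gene overlaps it.

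Fgf14, the intracellular factor, was highest in adipocyte-like nuclei in both matrices. Adipocyte-like nuclei held 1679.8 CPM in library 1 and 1718 CPM in library 2 of the 3-month matrix, and 1372.5, 1315 and 459.0 CPM in libraries 1 to 3 of the aging matrix. Against all other nuclei the ratio was 6.61 (6.35 to 6.87) and 26.9 (25.5 to 28.4). With Klb it made up the 2 members raised in adipocyte-like nuclei in each matrix, beside 4.13% of all genes in the 3-month and 7.26% in the aging matrix. With the study's full range of UMIs and genes the 3-month ratios were 2.38 for Fgf14 and 2.68 for Klb, under 4-fold.

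Across the other types of the 3-month matrix Fgf14 ran from 140.2 CPM in the skeletal muscle-like nuclei of library 2 to 478.3 CPM in the endothelial-like nuclei of library 1, among types with at least 50 nuclei in a library. T or NK cell-like nuclei held 506.2 CPM with libraries pooled (127 UMIs), of which 36 UMIs came from 1 nucleus of the 16 in library 1, and 373.3 CPM in library 2. Single nuclei also held 29 of the 87 Fgf14 UMIs of the endothelial-like and 33 of the 94 of the macrophage-like nuclei of library 1. Per UMI of Ucp1 these levels drew together: in library 2 Fgf14 was at 1.02 in endothelial-like, 1.13 in mural-like, 1.01 in stromal-like, 1.004 in macrophage-like, 0.894 in T or NK cell-like and 0.952 in skeletal muscle-like nuclei, and at 2.04 in adipocyte-like nuclei. Library 1 had 0.906 in stromal-like, 0.978 in endothelial-like, 0.886 in mural-like and 1.64 in adipocyte-like nuclei. The types other than adipocytes thus held Fgf14 and Ucp1 in a ratio near 1 in this matrix, below that of adipocyte-like nuclei. The part of stray RNA in their Fgf14 level was not tested.

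Other types of the aging matrix held less. Endothelial-like nuclei held 49.0, 73.4 and 17.7 CPM of Fgf14 and mural-like nuclei 46.3, 65.6 and 53.0 CPM. Per UMI of Ucp1 the aging adipocyte-like nuclei stood at 1.26, 0.746 and 0.883, the endothelial-like nuclei at 0.726, 0.303 and 0.384 and the mural-like nuclei at 1.22, 0.394 and 2.10. Mural-like nuclei were thus above adipocyte-like nuclei by this measure in library 3, from 109 Fgf14 and 52 Ucp1 UMIs, and close to them in library 1. Stromal-like nuclei stood at 4.33 in library 1, from 26 Fgf14 and 6 Ucp1 UMIs (1.74 to 12.9), at 0.290 in library 2 and at 0.952 (0.490 to 1.85) in library 3, from 20 Fgf14 UMIs. In each of libraries 1 and 3 a single stromal-like nucleus held 9 of these Fgf14 UMIs (34.6% and 45%), which the counting intervals do not cover. The share of nuclei with a UMI, thinned to 1000 UMIs, was 54.4% in adipocyte-like and 3.804% in endothelial-like nuclei of the aging matrix, against 64.7% and 30.35% in the 3-month matrix.

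Library 3 of the aging matrix stood apart for Fgf14. Its adipocyte-like nuclei were at 0.334 of library 1 (0.298 to 0.374) and 0.349 of library 2 (0.311 to 0.391), and libraries 1 and 2 did not differ beyond counting error (0.958, 0.906 to 1.01). Ucp1 was also lowest in library 3, with 1092.4, 1764 and 519.7 CPM in libraries 1 to 3. So was the adipocyte gene Adipoq, with 209.3, 159.2 and 92.3 CPM. Of all genes, 1.89% were at least 3-fold lower in library 3 than in library 1, and 0.764% than in library 2. Fgf14 did not quite reach that limit. Library 3 had 285 adipocyte-like nuclei.

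Fgf14 lies at chr14:123977907-124677127 and spans 699221 bases, the longest span here apart from the Fgfr2 model. Long genes carry more intronic RNA in nuclei. Overlapping it are 7 other genes, 2 of them on the same strand. The genes most like it over types and libraries were Ces1d (r = 0.99), Gm35552 and Ppp2r5a in the 3-month matrix and Apmap (r = 0.98), Pex16 and Akap1 in the aging matrix.

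**Figure D3:**
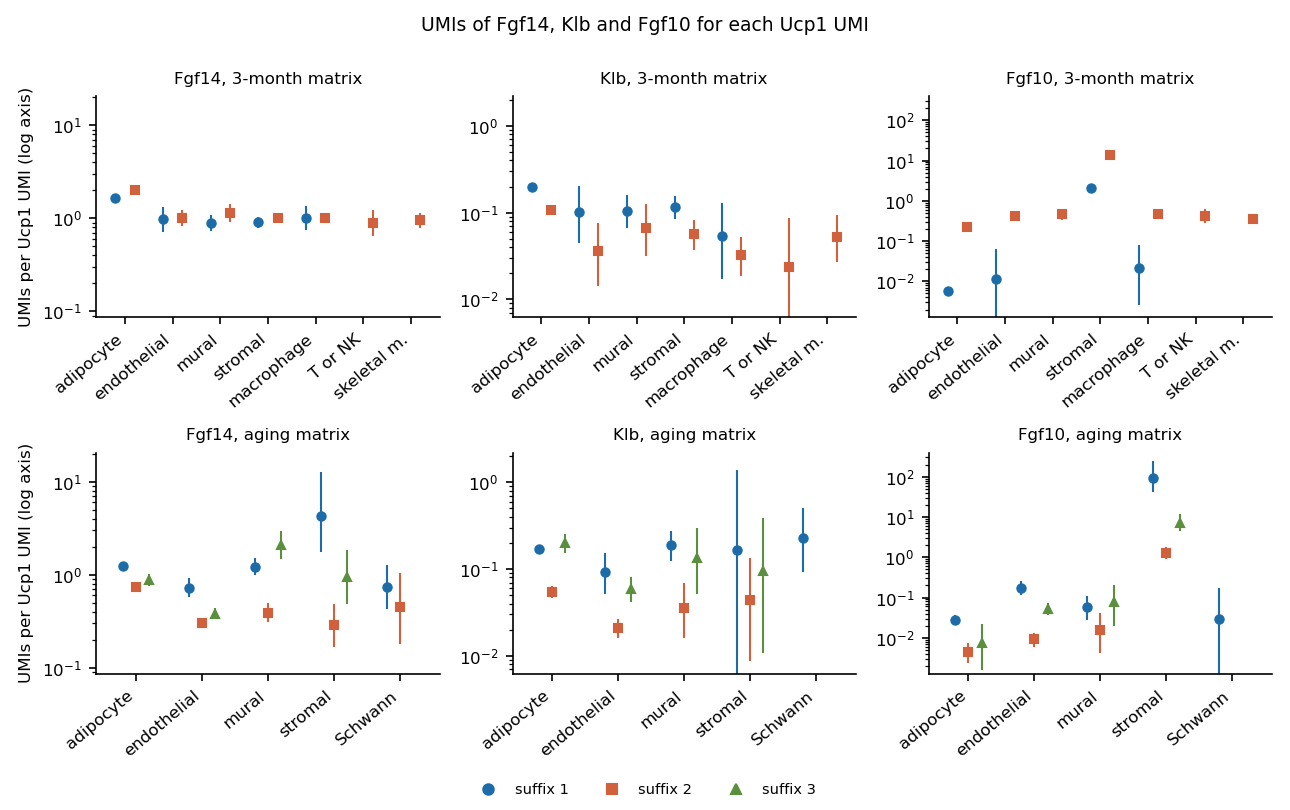
UMIs of Fgf14, Klb and Fgf10 per UMI of Ucp1 in each cell type with at least 50 nuclei in a library and with at least 1 UMI of the gene, on log axes, 1 point per library. Bars are 95% counting intervals, clipped at the axis. Fgf14 lies near 1 in the types other than adipocytes of the 3-month matrix and at 1.64 and 2.04 in adipocyte-like nuclei, and Fgf10 lies highest in stromal-like nuclei in all 5 libraries.

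Klb, the co-receptor that lets FGFR1 bind FGF21, was highest in adipocyte-like nuclei. Those of the aging matrix held 185.9, 95.8 and 102.9 CPM in libraries 1 to 3 (383, 163 and 78 UMIs), and endothelial-like nuclei 6.17, 5.05 and 2.74 CPM. The ratio to the other nuclei was 31.5 (26.6 to 37.3), and 27.9, 18.9 and 37.3 within libraries 1 to 3. Per UMI of Ucp1, however, the adipocyte-like nuclei stood at 0.170, 0.0543 and 0.198, the endothelial-like at 0.0914, 0.0209 and 0.0594 and the mural-like at 0.188, 0.0354 and 0.135. The part of stray adipocyte RNA in the low Klb level of other types was not tested. The adipocyte level was highest in library 1, and libraries 2 and 3 did not differ beyond counting error (1.07, 0.810 to 1.42).

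The 3-month level of Klb was 202.1 CPM in library 1 (14484 UMIs) and 90.9 CPM in library 2 (2547 UMIs) of the adipocyte-like nuclei, so library 1 was higher. The ratio to the other nuclei was 9.83 with libraries pooled (8.47 to 11.5), but 5.24 within library 1 and 8.598 within library 2. Other types held 20.9 to 49.5 CPM in library 1 and 6.97 to 20.2 CPM in library 2. Per UMI of Ucp1 the adipocyte-like nuclei stood at 0.198 and 0.108, and the mural-like nuclei at 0.106 and 0.0671, the stromal-like at 0.116 and 0.0566. After thinning to 1000 UMIs, 14.7% of adipocyte-like and 0.977% to 2.64% of other nuclei held a Klb UMI. Klb lies at chr5:65348314-65384007.

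Whether Klb and Fgfr1 share nuclei was counted in the adipocyte-like nuclei. Of adipocyte-like nuclei with a Klb UMI, 50.5% in library 1 and 44.5% in library 2 of the 3-month matrix also held an Fgfr1 UMI, against 48.3% and 33.2% of all adipocyte-like nuclei. The aging shares were 28.0%, 20.2% and 18.9% against 24.8%, 17.0% and 21.4%. Nuclei with an Fgfr1 UMI were deeper (median of 7024.5 against 5597 UMIs in library 1 of the 3-month matrix, and deeper in all 5 libraries). As a level, Klb was higher with Fgfr1 in 2 of the 5 libraries (99.4 against 84.3 CPM in 3-month library 2 and 107.5 against 92.6 CPM in aging library 2) and lower in 3.

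Fgfr1 itself, the main FGF receptor of mesenchymal cells, was highest in the stroma with libraries pooled. The 3-month stromal-like nuclei held 326.9 and 316.9 CPM, adipocyte-like nuclei 112.3 and 100.0 CPM and skeletal muscle-like nuclei 222.7 CPM in library 2. The stromal ratio to all other nuclei was 2.97 (2.79 to 3.15), under the 4-fold limit. Stroma was above muscle by 1.45 (1.29 to 1.64). Endothelial-like nuclei held 16.5 and 46.9 CPM.

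Its aging stromal level was 308.7, 249.9 and 469.6 CPM, and the ratio was 9.45 (8.68 to 10.3), with 3.84, 9.33 and 18.96 in the single libraries. Adipocyte-like nuclei held 123.8, 89.3 and 104.2 CPM, close to their 3-month level, and endothelial-like nuclei 20.4, 13.9 and 13.3 CPM. The endothelial-like nuclei were 17076 of 23709, so the nuclei that the stroma is set against differ between the matrices, and the 2 ratios are not on 1 footing. Schwann-like nuclei held 143.7, 93.9 and 88.3 CPM, second with libraries pooled but below adipocyte-like nuclei in library 3, where they had 12 UMIs. The 23 macrophage-like nuclei of library 1, a type not among the 5 compared there, held 386.8 CPM (205.9 to 661.4), above the stroma of that library, but from 13 UMIs, 6 of them in 1 nucleus. Fgfr1 lies at chr8:25513654-25575718.

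**Figure D4:**
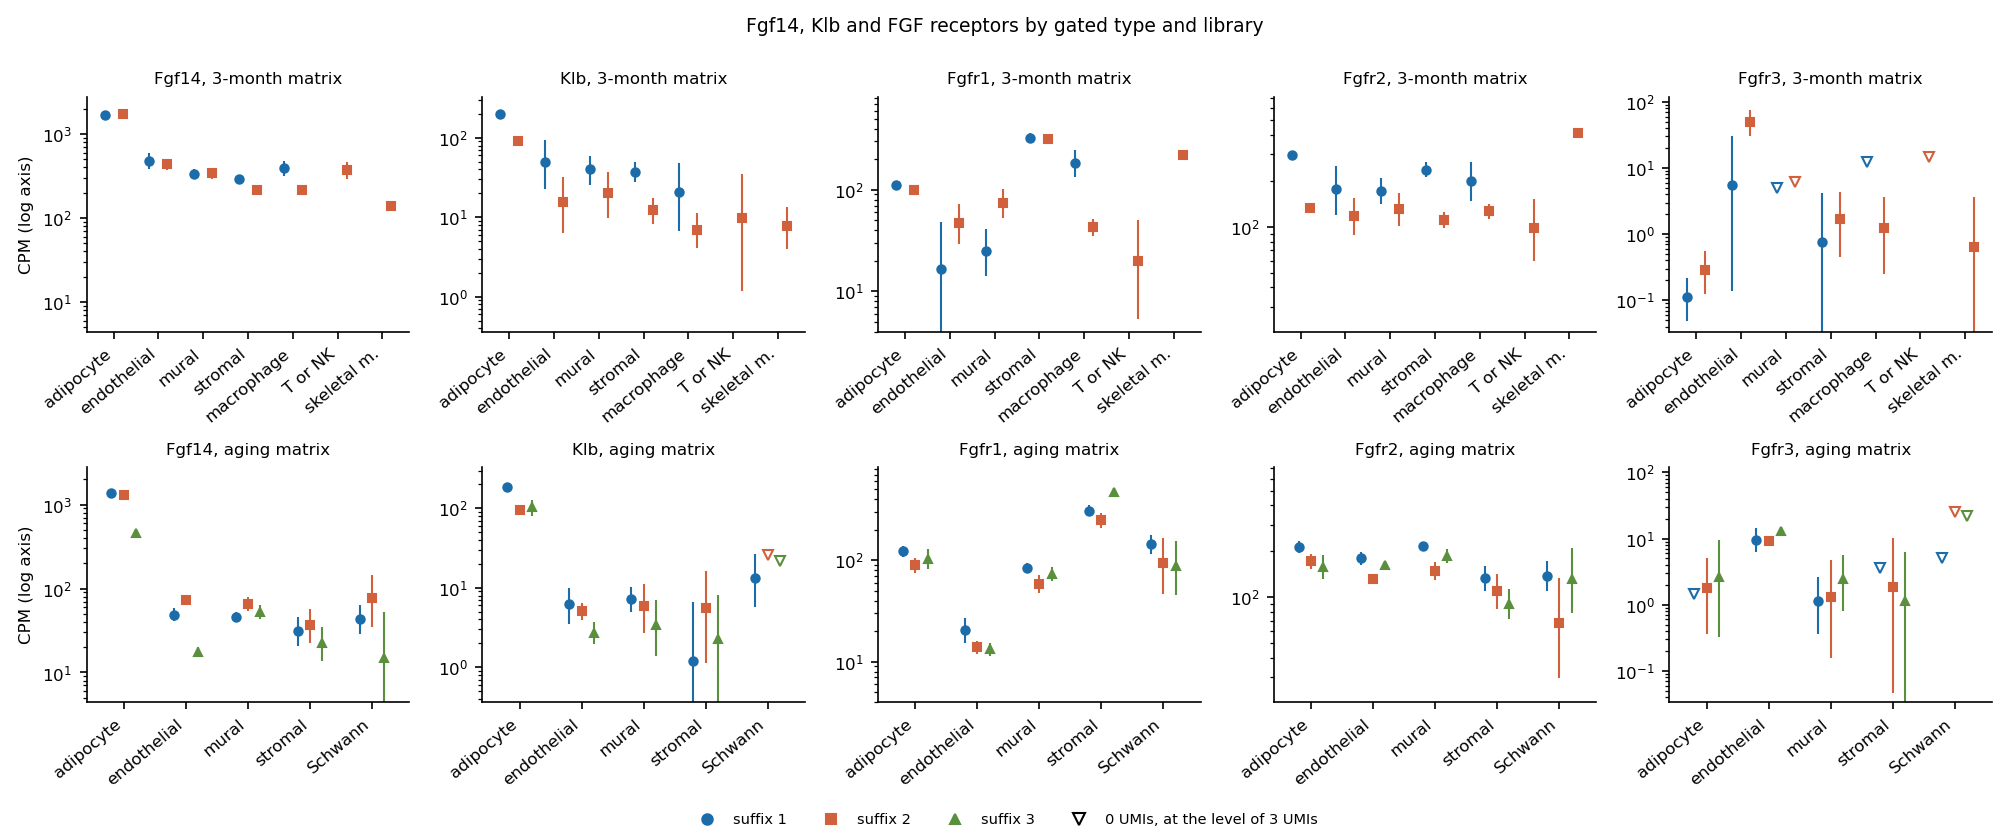
CPM of Fgf14, Klb and the FGF receptors in the 7 types compared in the 3-month and the 5 compared in the aging matrix, in libraries with at least 20 nuclei of the type, on a log axis, 1 point per library with its exact Poisson 95% interval, open triangles marking 0 UMIs at the level of 3 UMIs and lower bars clipped at the axis. Among the types drawn, Klb has its highest measured level in adipocyte-like, Fgfr1 in stromal-like and Fgfr3 in endothelial-like nuclei, while Fgfr2 is spread over all of them.

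Fgfr2, whose splice forms read epithelial or mesenchymal ligands, was spread over all types. The aging mural-like nuclei held 217.1, 149.5 and 186.8 CPM, adipocyte-like nuclei 213.6, 172.1 and 158.3 CPM and endothelial-like nuclei 179.6, 130.9 and 162.5 CPM. Mural- and adipocyte-like nuclei did not differ beyond counting error (1.04, 0.958 to 1.13). Its 3-month adipocyte level was 293.5 CPM in library 1 and 132.9 CPM in library 2, 0.453 of it, and the highest level was in skeletal muscle-like nuclei (411 CPM in library 2).

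Fgfr2 counts are uncertain. In GENCODE M21 the gene model runs over chr7:130162451-133123350, or 2960900 bases, because 1 of its 27 transcripts spans that stretch. The next longest spans 103813 bases and the RefSeq model 104358. The stretch is shared with 69 other genes, 36 of them on the same strand, among them Ate1, whose profile was the most like that of Fgfr2 in the aging matrix (r = 0.92). The annotation release behind the counts is not stated in the sources used here, and whether reads of these genes were counted as Fgfr2 was not tested.

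Fgfr3 was highest in the endothelium. The aging endothelial-like nuclei held 9.64, 9.24 and 13.1 CPM in libraries 1 to 3 (25, 117 and 196 UMIs), 9.40 times the level of the other nuclei (5.92 to 15.8; 15.5, 6.23 and 6.39 within the libraries), beside 4.6% of all genes raised in that type. It was seen in 1.85% of them. Mural-like nuclei held 1.12, 1.31 and 2.43 CPM and Schwann-like nuclei 0 UMIs, where 3 UMIs would be 3.52 CPM. Over the 3-month matrix it had 48 UMIs in all placed nuclei, under the minimum of 50, and 23 of them were in the 339 endothelial-like nuclei (1 in library 1 and 22 in library 2). Fgfr3 lies at chr5:33721674-33737068.

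The aging stroma had 4 members raised (Fgf2, Fgf7, Fgf10 and Fgfr1), beside 4.4% of genes, and the 3-month stroma 3 (Fgf2, Fgf7 and Fgf10), beside 8.61%. Skeletal muscle-like nuclei had 2 (Fgf1 and Fgf2), beside 5.46%. The aging mural-like nuclei had Fgf1 alone, beside 5.27%, the aging endothelial-like nuclei Fgfr3 alone, and the Schwann-like nuclei Fgf2 alone, beside 4.45%. None of the 8 members tested was raised in the endothelial-, mural-, macrophage- or T or NK cell-like nuclei of the 3-month matrix, beside 7.24%, 7.32%, 8.51% and 9.24% of genes.

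White-like adipocyte nuclei, parted by Cyp2e1, Aldh1a1, Nnat, Retn and Lrrc4c (genes known from earlier results of these data), differed from the other adipocyte-like nuclei in some members. They numbered 107 in library 1 and 987 in library 2 of the 3-month matrix. Their Ucp1 level was 618.4 and 221.2 CPM, against 1029 and 1087 CPM in the others. Fgf10 was at 70.9 and 315.5 CPM, against 4.62 and 143.1 CPM (ratios 15.4 and 2.21, with intervals of 12.1 to 19.4 and 2.09 to 2.33).

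Fgf2 had the same direction, at 16.2 and 13.3 CPM against 2.88 and 5.36 CPM (ratios 5.61 and 2.48). Fgfr1 was at 173.5 and 154.4 CPM against 111.2 and 78.7 CPM (1.56 and 1.96). Fgf14 was at 1724 and 2292 CPM against 1679 and 1493 CPM, and Klb at 174.3 and 100.8 CPM against 202.6 and 87.0 CPM, so Klb was lower in the white-like nuclei of library 1 and higher in those of library 2. Fgf1 was lower in the white-like nuclei of library 2, at 25.1 against 50.2 CPM (interval of the ratio 0.427 to 0.583), and did not differ beyond counting error in library 1, at 20.8 against 19.6 CPM (1.06, 0.698 to 1.55). Fgfr2 was at 301.5 and 155.9 CPM against 293.3 and 123.9 CPM, with ratios of 1.03 (0.928 to 1.14) and 1.26 (1.17 to 1.35). The 26 white-like nuclei of the aging matrix held 168.5 CPM of Fgf10 (24 UMIs), against 12.6 CPM in the other 1694 (ratio 13.4, 7.94 to 22.0).

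Markers of several other types were also higher in the white-like nuclei. The 10 stromal markers summed to 132.6 and 101.3 CPM in the white-like nuclei of the 3-month matrix, with 8 and 10 detected, against 27.2 and 78.9 CPM in the other adipocyte-like nuclei. The most abundant was Col6a3 in library 1 (45.5 CPM) and Col3a1 in library 2 (30.8 CPM). The skeletal muscle list summed to 141.9 and 321.2 CPM, against 4.90 and 162 CPM, and the mural list to 101.8 and 164.4 CPM, against 27.7 and 79.6 CPM. In library 2 most of the mural sum was Steap4, at 146.4 CPM in white-like and 49.4 CPM in other nuclei. The other mural markers together were not higher in the white-like nuclei there. Nor was the endothelial list higher, at 17.7 and 44.8 CPM against 22.1 and 46.1 CPM. The Schwann list was lower in library 2, at 132.7 against 152.7 CPM. In stromal-like nuclei themselves the stromal list stood at 6372 and 3619 CPM. The part of RNA of these types in the Fgf10 and Fgf2 levels of these nuclei was not tested.

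Around the members, 57 further genes of FGF signaling were counted from fixed lists, also chosen with earlier results of these data known. Enough UMIs were found for 44 in the 3-month matrix, of which 24 were raised in at least 1 type (beside 32% of all genes), and for 42 in the aging matrix, of which 16 were (beside 24.2%). The median of their highest ratio was 5.49 and 3.17. Stromal- and mural-like nuclei held most of them, with 15 and 14 raised in the 3-month matrix (beside 8.61% and 7.32% of all genes) and 5 and 7 in the aging matrix (beside 4.4% and 5.27%). In adipocyte-like nuclei 1 was raised in the 3-month and 3 in the aging matrix (beside 4.13% and 7.26%).

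Of 13 other secreted ligands, 4 had enough UMIs in the 3-month and 2 in the aging matrix. Fgf18 and Fgf9 were raised in both, 2 of 4 and 2 of 2, beside 32% and 24.2% of all genes. Fgf18, a ligand known from bone and lung, was stromal (ratio 69.1 in the 3-month and 54.5 in the aging matrix), with 9.91 and 9.68 CPM in the 3-month libraries and 26.5, 9.19 and 67.4 CPM in the aging ones. Fgf9 was an adipocyte gene at a low level (ratio 5.92 and 4.42), with 6.91 and 3.14 CPM in the 3-month and 3.40, 7.64 and 3.96 CPM in the aging libraries.

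The other homologous factors did not follow Fgf14. Fgf13 was at 2423 CPM in the skeletal muscle-like nuclei of library 2 (ratio 298 over both libraries), and in the aging matrix it was raised in Schwann-like (ratio 11.5) and mural-like nuclei (6.74). In the latter it was 90.9-fold higher in smooth muscle-like than in pericyte-like nuclei with libraries pooled (54.6 to 163.4). Within libraries 1 to 3 the ratio was 61.4, 61.9 and 334.8, from 9, 4 and 2 UMIs in pericyte-like nuclei. Fgf12 was stromal in both (42.9 and 14.5), and Fgf11 was raised in the mural-like nuclei of the 3-month matrix (4.89).

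Feedback inhibitors, which FGF and other growth factor signals turn on, had 8 of 10 genes raised in at least 1 type of the 3-month matrix, beside 32% of all genes, and 1 of 10 in the aging matrix, beside 24.2%. Spry2 was the one raised in both, in mural-like nuclei (17.3 and 5.395). Spry4 (17.4) and Dusp5 (22.1) were raised in the mural-like nuclei of the 3-month matrix and Spry1 in the stroma (21.2). Of the ETS transcription factors Etv1 was raised in mural-like nuclei in both matrices (45.1 and 14.7), and Etv5 in the 3-month stroma (14.0).

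Heparan sulfate proteoglycans, which hold FGFs at the cell surface, had 5 of 8 genes raised in at least 1 type of the 3-month matrix and 6 of 8 in the aging matrix, beside the same shares. In the 3-month stroma the glypicans Gpc6 (67.8) and Gpc3 (55.6) and the syndecan Sdc2 (13.6) were raised. Heparan sulfate enzymes had 3 of 8 and 2 of 8 raised, beside 32% and 24.2% of all genes. Among them, the extracellular sulfatases trim those chains. Sulf1 was raised in stromal- (24.9) and mural-like nuclei (21.1) of the 3-month matrix, and Sulf2 in the adipocyte-like nuclei of the aging matrix (8.04). Adaptors had 1 of 7 raised in each matrix, Grb2 in macrophage-like (7.76) and Gab1 in Schwann-like nuclei (5.20).

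The genes most like the other members, by Pearson r over the same 12 and 14 points, were as follows. For Klb they were Mtch2 (0.98), Slc27a2 and Slc36a2 in the 3-month matrix and Myo5c (0.98), Gys2 and Inca1 in the aging matrix. For Fgf7 they were Gria4 (0.97), Gm32618 and Srpx, then Mfap5 (0.97), Epha3 and Bicc1. For Fgf10 the first matrix gave A230057D06Rik (0.94) and Gfpt2 beside Gm16263, and the second Lrp6 and Dpep1.

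The remaining members had these neighbours. For Fgf1 they were Pdzrn3 (0.97), Gm28376 and Jph1, then Frmpd1, Fhl5 and Tmem200a. For Fgf2 they were Plekha6, Zfp651 and Pja2, then Adam23 (0.97) and Reck. For Fgfr1 they were Gm41664, Hr and Wdr33, then Loxl1 (0.97), Eri3 and Zfhx4. For Fgfr2 the first matrix gave Idh2, Myo5c and Dcun1d2, and the second Gm15336 and Arhgap26 beside Ate1. For Fgfr3 in the aging matrix they were Gm17745, Gm12472 and Myo1c. The points share libraries, so these values describe the profiles and were not tested, and no member had the same neighbour in both matrices except Fgf10 with Gm16263.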

How the data were processed

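The authors sorted nuclei by flow cytometry and deposited matrices of raw UMI counts per gene and nucleus, 1 for each group of libraries. Per the labels, Cell Ranger 6.1.2 and Seurat 4.1.0 were used on the mm10 build. Intron counting, the annotation release and any equalising of depth are not given in the sources used here. Members and gene lists were chosen with earlier results of these data known.

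Nuclei with at least 200 UMIs and 100 genes were kept. The study's upper limits (2000 UMIs, 3000 genes) would leave 2763 of 20307 and 18756 of 27842 nuclei and were an alternative. A nucleus was placed by its marker UMIs (at least 3, from at least 2 markers, at 60% of the reference level for adipocytes and 40% for other types). Nuclei that passed for 2 types (557 and 2031) were left out as possible doublets, and 1398 and 2102 passed for none. CPM intervals are exact Poisson, shares Clopper-Pearson, ratios exact conditional binomial, all at 95%. Zero counts are given with the level of 3 UMIs. Each matrix counts as 1 sample, so no test, genotype or age comparison was made, and syntaxin 4 was not used to name libraries. UMIs totalled 76195924 and 39857819 in the 3-month libraries and 14486189, 19278264 and 20891602 in the aging libraries. All 10 members, the genes of the fixed pathway lists and the 3 genes most like each member (at least 200 UMIs, log2 of CPM plus 1) were named, apart from 1 like gene that is not reported here. Alternatives were the gate, the limits on UMIs and genes, odd or even markers, single libraries or libraries at equal weight, the minimum of UMIs, the ratio, thinning and the pseudocount. Gene positions are from GENCODE M21 by Ensembl identifier (10 of 10 matched). The ratio step was tested on simulated data. Python 3.11.15, numpy 2.4.6, scipy 1.17.1, pandas 2.3.3 and matplotlib 3.10.9 were used.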

Additional observations from a re-analysis of the deposited data

Results flagged for a closer look

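Nuclei that were placed in no cell type take no part in the comparisons above, and 4 members stood at least 4-fold higher in them than in the placed nuclei of the same library, where they had at least 10 UMIs. In library 2 of the 3-month matrix these were 2 of 8 members tested, beside 2.003% of 12333 genes, and in library 3 of the aging matrix 2 of 6, beside 3.73% of 6249 genes. None was in the other 3 libraries. In library 2 of the 3-month matrix, 1155 such nuclei held Fgf7 at 29.89 CPM (92 UMIs), against 4.71 CPM in placed nuclei, and Fgf10 at 1648.6 CPM (5075 UMIs), against 358.0 CPM. The 10 stromal markers were all detected there and summed to 490.5 CPM, with Col6a3 the most abundant (125.1 CPM), the macrophage list to 448.3 CPM with Mertk (313.1 CPM) and the skeletal muscle list to 354.1 CPM with Ttn (205.3 CPM), while the adipocyte list summed to 5516 CPM with Pparg the most abundant (1657 CPM). In library 3 of the aging matrix, 241 such nuclei held Fgf2 at 47.86 CPM (20 UMIs), against 8.63 CPM, and Fgf14 at 160.3 CPM (67 UMIs), against 39.4 CPM. Their stromal list summed to 641.4 CPM (9 of 10 markers, Col6a3 the most abundant at 181.9 CPM), their mural list to 840 CPM (9 of 9, Rgs5 at 306.3 CPM), their Schwann list to 392.5 CPM (7 of 7 markers, Cdh19 at 277.6 CPM), their adipocyte list to 2613 CPM (10 of 10, Pparg at 1033.8 CPM) and their endothelial list to 2261.5 CPM (10 of 10, Flt1 at 684.4 CPM). The part of these cell types in the levels was not tested.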

How the results depend on the processing

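No paired analysis was possible because each group has 1 library and no comparison between groups was made. The number of members raised in at least 1 type was 6 in the 3-month matrix and 8 in the aging matrix. With the full stated range of UMIs and genes, which leaves 2763 nuclei, the 3-month count was 2 (Fgf10 and Fgfr1), and in the aging matrix it was 8. Under the other settings it ran from 4 (ratio of at least 8) to 8 (minimum of 20 UMIs) in the 3-month matrix and from 6 (library 1 alone) to 8 in the aging matrix. With equal weight to each other type, chosen after seeing the data, Fgf2 was no longer raised in the 3-month matrix. Library 1 of the 3-month matrix alone gave 5, without Fgf1, since it had 8 skeletal muscle-like nuclei. Of the values recomputed under planned settings, 162 stayed within counting error or within 1.5 times the count, and 78 moved further. Under settings chosen after seeing the data the numbers were 4 and 13. None of the ratios recomputed, each for the type where a member was highest with libraries pooled, changed direction. In other types a ratio could turn: for Fgf2 in aging mural-like nuclei it was 2.165 with libraries pooled and 0.723 in library 1. Depth limits Fgf21, Fgfr3 and the small subsets, and the missing link between library and genotype or age limits every difference between libraries.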
